A study of Mus musculus with 6 samples.

Results

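The SETD family members described here were 9 genes that encode proteins with a SET domain: *Setd5*, *Setd1a*, *Setd1b*, *Setd2*, *Setd3*, *Setd4*, *Setd6*, *Setd7* and *Setdb1*. They were listed by gene symbol and were all found among the 54232 genes of the count files. *Setd5* was selected on its measured counts in the comparison described here, WD + Tributyrin against WD + Vehicle, and the other 8 members were listed to ask whether it moved alone. The values of *Setd5* in that comparison are therefore given as a description, and nothing is supported with a test of them.

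RNA from heart ventricle was measured by mRNA sequencing in 6 wild-type C57BL/6J mice, 3 in each group. All 6 mice were fed western diet (WD) for 15 weeks before treatment, so the diet was shared by both groups and was not compared. The WD + Tributyrin mice were then needle-fed Tributyrin, a triglyceride of butyrate, at 5 g/kg body weight for 3 weeks in turns of 2 days on and 2 days off. The WD + Vehicle mice received the vehicle, which the labels name PBS. The sources used here give neither age nor sex for these 6 mice. The RNA came from whole tissue, in which fewer cells of a type and less RNA per cell cannot be told apart.

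The SET domain is the fold by which most lysine methyltransferases transfer a methyl group from S-adenosylmethionine to a lysine. SETD1A and SETD1B are the catalytic subunits of the SET1/COMPASS complexes, which methylate lysine 4 of histone H3 at promoters. SETD2 places the trimethyl mark on lysine 36 of histone H3 in transcribed gene bodies, and SETDB1 places the trimethyl mark on lysine 9, which silences retroelements. SETD3 methylates a histidine of actin, SETD7 methylates histones and many other proteins, and SETD6 methylates the NF-kB subunit RelA. SETD5 is a chromatin protein found with the NCoR-HDAC3 and PAF1 complexes, and whether it methylates histones itself is disputed. Butyrate inhibits class I histone deacetylases, of which HDAC3 is one.

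The libraries held between 20369746 and 32734485 counts on genes. Between 23.6% and 26.5% of a vehicle library and between 25.9% and 28.8% of a Tributyrin library were mitochondrial counts. The cardiomyocyte markers *Myh6*, *Tnnt2*, *Tnni3*, *Actn2*, *Ryr2* and *Myl2* summed to 996905 to 1063336 normalized counts with vehicle. With Tributyrin they summed to 1010337 to 1095062. This sum does not tell ventricle from atrium. The 5 atrial markers differed between libraries. The 4 that were tested all had negative log2 fold changes, with a median of -1.9, and their groups overlapped. The values were -2.24 (SE 0.80) for *Sln*, -1.94 (SE 0.70) for *Myl7*, -1.86 (SE 0.64) for *Myl4* and -0.53 (SE 0.33) for *Nppa*. *Myl7*, *Myl4* and *Sln* summed to 4048 and 3910 normalized counts in vehicle libraries 1 and 2, against 363 in vehicle library 3 and 505, 1232 and 468 in the Tributyrin libraries. Among the vehicle libraries *Nppa* went another way and was highest in library 3. It was at 554, 485 and 1046 normalized counts with vehicle and at 296, 416 and 731 with Tributyrin. *Bmp10* had at most 1 count in a library. All 5 together summed to 1409 to 4604 normalized counts with vehicle and to 800 to 1647 with Tributyrin.

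*Setd5* (ENSMUSG00000034269) lies on chromosome 6 from 113077365 to 113153435 on the plus strand (mm10), and *Gt(ROSA)26Sor*, an antisense noncoding RNA gene known as the site where transgenes are often placed in mice, lies beside it from 113067428 to 113077333 on the minus strand. The annotated starts of this pair are 32 bases apart and point away from each other. The RefSeq table of promoters (GRCm38.p6) holds a window for 8 of the 9 members, *Setd1b* being the one without. For *Setd5* that window is placed at an inner start, at 113104935, which is 27570 bases downstream of the outermost start. Its 250 bases upstream of the inner start, which lie in an intron of the longer transcripts, are shown beside 220 of the 264 bases between the divergent genes *Setd3* and *Ccnk*, those nearest to *Setd3*, to let the base composition of both be seen, with each CG pair in capitals and each sequence given 5′ to 3′ on the strand of its gene.

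Setd5, chr6:113104685-113104934, plus strand: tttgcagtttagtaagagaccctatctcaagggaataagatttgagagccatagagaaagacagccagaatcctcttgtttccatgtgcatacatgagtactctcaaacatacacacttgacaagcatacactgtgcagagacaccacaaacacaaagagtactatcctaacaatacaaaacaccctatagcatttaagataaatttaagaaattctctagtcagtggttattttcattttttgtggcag
Setd3, chr12:108179315-108179534, minus strand: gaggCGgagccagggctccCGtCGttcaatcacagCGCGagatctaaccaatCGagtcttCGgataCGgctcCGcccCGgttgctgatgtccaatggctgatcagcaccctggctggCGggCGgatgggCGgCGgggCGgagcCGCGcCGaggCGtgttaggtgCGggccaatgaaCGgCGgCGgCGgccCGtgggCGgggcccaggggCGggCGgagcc

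The stretch before the inner start of *Setd5* held 0 CG pairs in 250 bases, and the stretch before *Setd3* held 28 in 220 bases. Over whole windows of 300 bases, *Setd5* held 1 CG pair and the other 7 members with a window held between 15 and 40. These are unlike positions, as the windows of the other 7 were placed within 719 bases of the outermost start and that of *Setd5* at the inner start. No window covered the outermost start of *Setd5*, so the CG pairs there were not counted. The median over all 32851 windows was 7 CG pairs, and 14.1% of them held as few as *Setd5* or fewer. The letters do not show where transcription starts in these libraries, and the counts, which are summed over all transcripts of a gene, do not tell the inner start of *Setd5* from the outermost one.

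The normalized read count of *Setd5*, a count divided by the size factor of its library, was 1985, 1885 and 2736 in the 3 vehicle libraries and 1756, 1275 and 1195 in the 3 Tributyrin libraries. Each Tributyrin library was below each vehicle library, with vehicle library 3 the highest of the 6 and Tributyrin library 3 the lowest. The mean with vehicle was 2202 ± 465 (SD, n = 3) and that with Tributyrin 1409 ± 304 (SD, n = 3), a difference of -36.0% in the means and a fitted log2 fold change of -0.64 (SE 0.17). The spread between mice of one group was 21.1% of the mean with vehicle and 21.5% with Tributyrin, while counting error was at most 3.10% for this gene. Vehicle library 3 carried much of the size, and without it the log2 fold change was -0.45 (SE 0.15). Vehicle library 3 was low in *Myl7*, *Myl4* and *Sln* and high in *Nppa*, and against it alone the Tributyrin mice were at -0.98 in log2 CPM. As it was the highest library in *Setd5*, the larger size of that value is fixed by the choice. The part of the atrial transcripts in the difference was not tested.

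**Figure D1:**
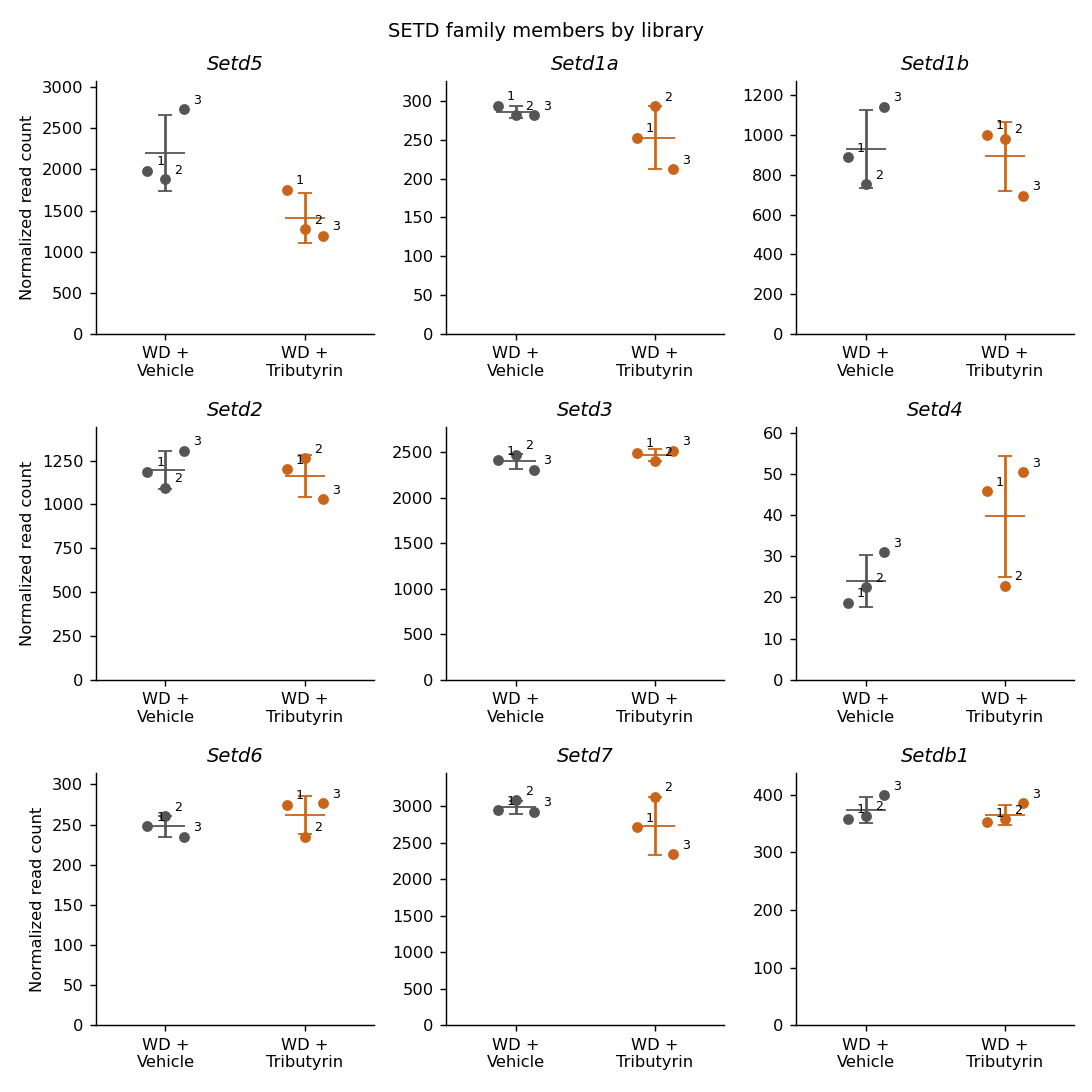
Normalized read count (vertical axes, from 0) of each member in the 3 WD + Vehicle libraries (grey) and the 3 WD + Tributyrin libraries (orange). Points are libraries with their replicate number, and the bar and whiskers are the mean ± SD. In *Setd5* the groups do not overlap, and in the other 8 members they do.

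Of the 9 members, 0 were past an FDR of 10% when edgeR was fitted across 14133 genes, as were 0% of those genes. The unadjusted p was under 0.05 for 600 genes, and the 1 member among them was *Setd5*, which this comparison had selected. *Setd5* was also the 1 member of 9 whose groups did not overlap, and this was so for 8.94% of all 14133 genes. DESeq2 without a prior called 11 genes at an FDR of 10%, or 0.0835% of 13179, and with a normal prior it called 9, or 0.071% of 12683. Without its filter on low counts, edgeR called 167 genes, or 0.653% of 25581. *Setd5* was among the genes called in these 3 fits, from which nothing is read since the same contrast had selected it, and limma-voom called 0 genes.

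The other 8 members had a median log2 fold change of -0.03, beside -0.0013 over all genes tested, with 5 members at negative values and 3 at positive values. They had an adjusted p of 0.999 each (edgeR, Benjamini-Hochberg over all genes tested). *Setd5* had the same adjusted p, and 0.999 was the smallest over all genes tested, so this value does not set *Setd5* apart from them. The log2 fold changes lay between -0.17 and 0.08 in 7 of them. *Setd4* had a larger size than *Setd5*, in the other direction, on few counts. Of all 9 members, *Setd5* included, 4 were highest in vehicle library 3 and 5 were lowest in Tributyrin library 3. How often this was so over all genes was not counted.

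The catalytic subunits of SET1/COMPASS, *Setd1b* and *Setd1a*, had overlapping groups. *Setd1b* (ENSMUSG00000038384, chr5:123142193-123168629, plus strand) was at 890, 754 and 1143 normalized counts with vehicle and at 1002, 981 and 695 with Tributyrin. As with *Setd5*, vehicle library 3 was the highest and Tributyrin library 3 the lowest, but Tributyrin libraries 1 and 2 lay above 2 of the vehicle libraries. Its log2 fold change was -0.05 (SE 0.17), turning to 0.13 without vehicle library 3 and to 0.11 without Tributyrin library 3, and its spread within groups of 21.2% and 19.2% was as wide as that of *Setd5*. *Setd1a* (ENSMUSG00000042308, chr7:127776670-127800122, plus strand) was at 294, 281 and 282 normalized counts with vehicle and at 252, 293 and 212 with Tributyrin. The vehicle libraries were close together and Tributyrin library 2 lay among them, and the log2 fold change of -0.17 (SE 0.13) became -0.06 without Tributyrin library 3 and -0.30 without Tributyrin library 2.

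The H3K36 and H3K9 methyltransferases had small differences. *Setd2* (ENSMUSG00000044791, chr9:110532597-110618633, plus strand) was at 1187, 1094 and 1307 normalized counts with vehicle and at 1200, 1263 and 1030 with Tributyrin. As with *Setd5*, vehicle library 3 was the highest and Tributyrin library 3 the lowest. Its log2 fold change was -0.04 (SE 0.10), turning to 0.03 without vehicle library 3 and to 0.05 without Tributyrin library 3. *Setdb1* (ENSMUSG00000015697, chr3:95323525-95357202, minus strand) was at 359, 364 and 399 normalized counts with vehicle and at 353, 357 and 385 with Tributyrin, with library 3 the highest of each group, and its log2 fold change was -0.03 (SE 0.10), turning to 0.02 without vehicle library 3.

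The members that methylate proteins outside chromatin include *Setd3*, which had the smallest SD within groups of the 9, 0.04 on the log2 scale when pooled over both groups. *Setd3* (ENSMUSG00000056770, chr12:108106431-108179314, minus strand) was at 2412, 2476 and 2311 normalized counts with vehicle and at 2495, 2399 and 2520 with Tributyrin. Its spread was 3.47% of the mean with vehicle and 2.58% with Tributyrin, and its log2 fold change was 0.04 (SE 0.07), or 2.99% in the means, and -0.03 when scaled by library size alone. *Setd7* (ENSMUSG00000037111, chr3:51515319-51560879, minus strand) was at 2947, 3081 and 2921 normalized counts with vehicle and at 2709, 3126 and 2344 with Tributyrin. Tributyrin library 2 was the highest of all 6 and Tributyrin library 3 the lowest. The log2 fold change was -0.13 (SE 0.10), and it was -0.03 without Tributyrin library 3 and -0.24 without Tributyrin library 2. *Setd6* (ENSMUSG00000031671, chr8:95715881-95719010, plus strand) was at 248, 261 and 235 normalized counts with vehicle and at 275, 235 and 277 with Tributyrin, with a log2 fold change of 0.08 (SE 0.11).

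*Setd4* (ENSMUSG00000022948, chr16:93583457-93604063, minus strand), which encodes a little studied methyltransferase, was the lowest member, with 18 to 49 counts per library. It was at 18.7, 22.5 and 31.1 normalized counts with vehicle and at 45.8, 22.8 and 50.5 with Tributyrin. Tributyrin libraries 1 and 3 were above all others, while Tributyrin library 2 lay within the vehicle range. The log2 fold change was 0.72 (SE 0.35), and at 18 counts the counting error alone was 23.6% of the value.

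**Figure D2:**
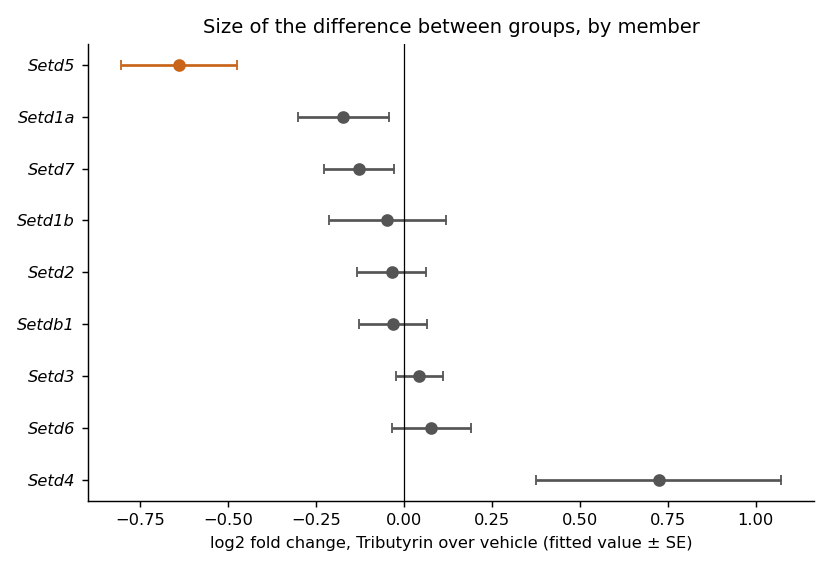
Fitted log2 fold change of each member, Tributyrin over vehicle, with bars of 1 SE from edgeR. The horizontal axis is on the log2 scale with 0 as no difference, and orange marks the member whose groups do not overlap. *Setd5* is at -0.64, *Setd4* at 0.72 with the widest bar, and the other 7 members lie between -0.17 and 0.08.

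The levels of the members could be set against each other only per transcript length, as TPM. In the vehicle libraries the order was *Setd3* at 36.2 ± 1.85 TPM (SD, n = 3), *Setd7* at 25.1 ± 1.49, *Setd6* at 11.9 ± 0.780, *Setd5* at 10.9 ± 2.59, *Setd2* at 10.1 ± 1.08, *Setd1b* at 7.02 ± 1.62, *Setdb1* at 4.97 ± 0.461, *Setd1a* at 3.83 ± 0.0747 and *Setd4* at 0.41 ± 0.121. *Setd6*, *Setd5* and *Setd2* had overlapping ranges and were not told apart, while all other neighbours in this order were separate in these 3 libraries. Over all 6 libraries the range of *Setd1b* also overlapped those of *Setd2* above it and *Setdb1* below it. The range of *Setd5* over all 6, 5.07 to 13.95 TPM, overlapped those of *Setd1b* and *Setdb1* as well. With Tributyrin *Setd5* was at 8.04, 6.20 and 5.07 TPM, a mean of 6.44 ± 1.495 (SD, n = 3), below the mean of *Setd2* at 9.10 ± 1.53, while in vehicle library 1 *Setd5* was already below *Setd2*. The other members kept their places in the order of the means. *Setd5* is the longest of the 9 by annotated exons, with 18347 bases against 1903 in *Setd6*, and TPM divides by all of that length whichever transcripts were present.

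**Figure D3:**
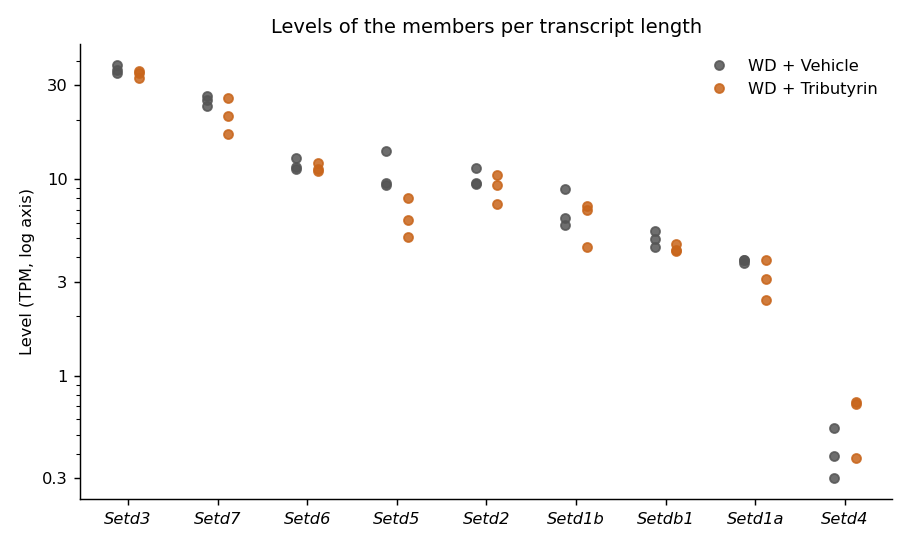
Level of each member in TPM (vertical axis, log scale) in each WD + Vehicle (grey) and WD + Tributyrin (orange) library. Each point is a library and the members are ordered by their vehicle mean. *Setd3* and *Setd7* are highest, *Setd4* is below 1 TPM in all libraries, and *Setd5* overlaps *Setd2* with vehicle and has the lower mean of the pair with Tributyrin.

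Within a library, where scaling cancels, *Setd5* was compared with its own family. Its log2 CPM (log2 of CPM with a prior count) was 1.98, 1.90 and 2.30 above the mean of the other 8 members in the vehicle libraries and 1.65, 1.28 and 1.21 above it in the Tributyrin libraries. The means were 2.06 ± 0.21 (SD, n = 3) and 1.38 ± 0.24 (SD, n = 3), a difference of -0.68, which holds the same *Setd5* values that selected the gene and is given as a description. The mean of the other 8 was 4.31 ± 0.08 log2 CPM with vehicle and 4.35 ± 0.06 with Tributyrin, which overlapped. Each member has equal weight in that mean, also *Setd4* with its 18 to 49 counts and a log2 fold change of 0.72. The median log2 fold change of the other 8 was -0.03. *Setd5* made up 9.06%, 8.58% and 11.96% of the summed TPM of the 9 members with vehicle and 8.004%, 5.90% and 5.95% with Tributyrin.

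The same holds for ratios of *Setd5* to single members. To *Setd1b*, the member with the most similar spread, the ratio of normalized counts was 2.23, 2.50 and 2.39 with vehicle and 1.75, 1.30 and 1.72 with Tributyrin. The vehicle ratios were close together, with an SD of 0.08 on the log2 scale, where *Setd5* alone had 0.29, both genes being highest in vehicle library 3. To *Setd2* the ratio was 1.67, 1.72 and 2.09 with vehicle and 1.46, 1.01 and 1.16 with Tributyrin. To *Setd7* it was 0.674, 0.612 and 0.937 with vehicle and 0.648, 0.408 and 0.510 with Tributyrin, and to *Setd1a* 6.75, 6.70 and 9.70 against 6.96, 4.35 and 5.63. In these 2 ratios Tributyrin library 1 lay within the vehicle range.

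Transcript length moved with some libraries. Protein-coding genes with at least 12000 exonic bases, 602 genes at over 3 log2 CPM, had a median deviation from their own means of 0.03, -0.01 and 0.06 on the log2 scale in the vehicle libraries and of -0.02, 0.11 and -0.16 in the Tributyrin libraries. Long genes were thus low in Tributyrin library 3 and high in Tributyrin library 2. With that median subtracted in each library, the difference of *Setd5* was -0.60, and the part of transcript length in it was not tested.

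Of the genes beside *Setd5*, *Gt(ROSA)26Sor* was separate between the groups in the opposite direction. It was at 44.7, 20.9 and 23.6 normalized counts with vehicle and at 55.2, 74.0 and 73.4 with Tributyrin. Each Tributyrin library was above each vehicle library. Within the Tributyrin group, library 1 was the highest in *Setd5* and the lowest in *Gt(ROSA)26Sor*. Within the vehicle group, library 3 was the highest in *Setd5*, while library 2 was the lowest in *Gt(ROSA)26Sor*. Vehicle libraries 2 and 3 were close in *Gt(ROSA)26Sor*, on 27 and 19 counts. The mean with vehicle was 29.7 ± 13.02 (SD, n = 3) and that with Tributyrin 67.5 ± 10.7 (SD, n = 3), and the log2 fold change was 1.19 (SE 0.30, adjusted p = 0.999, edgeR). These are 19 to 81 counts per library, and it did not pass the test. Counts of *Setd5* per count of *Gt(ROSA)26Sor*, both normalized, were 44.4, 90.0 and 116 with vehicle and 31.8, 17.2 and 16.3 with Tributyrin. This ratio holds the *Setd5* values that selected the gene and is given as a description.

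**Figure D4:**
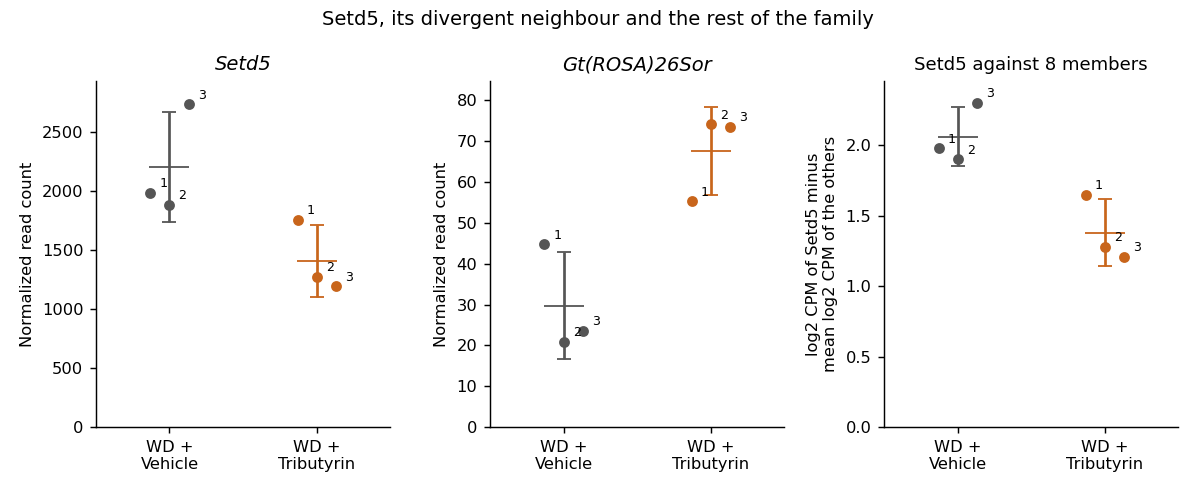
Normalized read counts of *Setd5* (left) and of its divergent neighbour *Gt(ROSA)26Sor* (middle), and the log2 CPM of *Setd5* minus the mean log2 CPM of the other 8 members (right), in each library of WD + Vehicle (grey) and WD + Tributyrin (orange). Points carry the replicate number, the bar and whiskers are the mean ± SD, and all axes start at 0. *Setd5*, selected on this contrast, is lower and *Gt(ROSA)26Sor* higher in each Tributyrin library than in each vehicle library, and the right panel holds the same *Setd5* values.

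The library kit keeps strand, but the sources used here do not say whether reads were counted by strand. The exons of *Setd5* and *Gt(ROSA)26Sor* do not overlap. *Gt(ROSA)26Sor* shares 145 exonic bases with the end of *Thumpd3* on the other strand, where reads could be told apart only by strand. *Thumpd3*, which encodes a putative RNA methyltransferase and was looked at after the values of *Gt(ROSA)26Sor* were seen, was at 371, 377 and 379 normalized counts with vehicle and at 349, 380 and 310 with Tributyrin, with overlapping groups. On the other side, *Lhfpl4*, which encodes a protein of inhibitory synapses, was at 25.0, 21.7 and 11.2 normalized counts with vehicle and at 11.2, 16.4 and 12.6 with Tributyrin, which overlapped (log2 fold change -0.54, SE 0.38).

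The other members also have close neighbours. Counting each gene that overlaps a member and the nearest gene on each side, 28 genes were listed, of which 14 passed the filter on low counts. None of the 14 passed an FDR of 10% in edgeR, and 1 of them, *Gt(ROSA)26Sor*, had groups that did not overlap, where 8.94% of all genes did not, so that the count is near the background. Among the 14, 5 started within 2000 bases of the member on the other strand. Apart from *Gt(ROSA)26Sor* these were *Ccnk* beside *Setd3* at 265 bases, with a log2 fold change of -0.07 (SE 0.09), and 3 more. The noncoding *AI480526* beside *Setd1b* at 527 bases was at 0.18 (SE 0.25). *Cbr1*, a carbonyl reductase gene, beside *Setd4* at 1790 bases, was at 0.19 (SE 0.10). The noncoding *5031434O11Rik* starts within *Setd7*, 844 bases from the start of that gene, and was at 0.01 (SE 0.34). It shares 131 exonic bases with *Setd7*, where reads could be told apart only by strand. In these 4 genes the values of the groups overlapped.

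Genes that work with the family were read from 8 lists, which together held 93 genes, 92 of them tested. Of these, 0 passed an FDR of 10% in either direction in edgeR. The unadjusted p was under 0.05 for 2 of the 92, *Trp53* and the cardiac actin gene *Actc1* (log2 fold change -0.21). This was so for 600 of all 14133 genes, and nothing about the lists is read from it. The groups did not overlap in 3 of the 92, *Trp53*, *Tbl1x* and *Pphln1*, beside the 8.94% of all genes. *Actc1* and *Tbl1x* were named after their values were seen. Among 28 other SET domain methyltransferases, 9 had positive and 19 negative values with a median of -0.02. The extremes were *Smyd3*, of the SMYD group of methyltransferases, at -0.24 and *Kmt5c*, an H4K20 methyltransferase gene, at -0.16, and *Setdb2*, an H3K9 methyltransferase gene, at 0.35 and *Prdm9*, the meiotic H3K4 methyltransferase gene, at 0.47. The value of *Setdb2* rested on Tributyrin library 3, at 295 normalized counts, where the other 5 libraries lay between 132 and 161.

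Complexes of the family members had small values. The 9 subunits of SET1/COMPASS had a median of 0.04, from *Hcfc1* at -0.10 and *Bod1l* at -0.06 to *Wdr5* at 0.05 and *Dpy30* at 0.07. The 12 genes of the NCoR-HDAC3 and PAF1 complexes, with which SETD5 is found, had a median of -0.003, from *Wdr61* at -0.12 and *Tbl1xr1* at -0.07 to *Ctr9* at 0.13 and *Leo1* at 0.18. The 9 tested genes of the SETDB1 partners and HUSH, the complex that silences retroelements, had a median of 0.005, from *Cbx5* at -0.12 and *Pphln1* at -0.08 to *Mphosph8* at 0.07 and *Morc2a* at 0.11.

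The readers and erasers of the marks were similar. The list of H3K36 readers and erasers held 13 genes, among them the elongation factor genes *Iws1* and *Supt6*, which are neither. Its median was -0.02, from *Dnmt3a* at -0.10 and *Kdm2a* at -0.08 to *Kdm4b* at 0.02 and *Supt6* at 0.03. The 5 H3K4 demethylase genes had a median of 0.005, from *Kdm5a* at -0.09 and *Kdm1b* at -0.06 to *Kdm5c* at 0.05 and *Kdm1a* at 0.06.

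The 11 genes for substrates outside histones had a median of -0.02. *Trp53*, which encodes p53, a substrate of SETD7, was at 363, 319 and 352 normalized counts with vehicle and at 275, 291 and 271 with Tributyrin, with separate groups and a log2 fold change of -0.30 (SE 0.10, adjusted p = 0.999, edgeR). *Acta1*, skeletal alpha-actin, was at -1.20 with a wide SE of 0.55, since vehicle library 2 held 30672 normalized counts and the other 5 libraries 2476 to 12524. At the other end were *Pak4* at 0.03 and *Acta2* at 0.11. The 5 nuclear-retained RNAs, which were listed as a sign of nuclear RNA content, had negative values in all 5 with a median of -0.25, from *Meg3* at -0.31 and *Kcnq1ot1* at -0.27 to *Malat1* at -0.10 and *Neat1* at -0.01. These 5 RNAs had overlapping groups, and their part in the value of *Setd5* was not tested.

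The genes whose pattern over the 6 libraries was most like that of *Setd5*, among 9699 others with a mean CPM of at least 5, were *Ankra2* (Pearson r 0.993), *Zfp26* (0.979), *Rcan3* (0.977), *Pola1* (0.969) and *Abcg1* (0.968). These coefficients describe 6 libraries, and 56 genes had one over 0.9. The likeness is in the shape of the pattern and not in size, since the log2 fold changes of these genes lay between -0.25 (*Zfp26*) and -0.14 (*Ankra2*). The coefficients hold the *Setd5* values that selected the gene, so the negative direction follows from the choice. *Ankra2* was at 380, 382 and 405 normalized counts with vehicle and at 372, 343 and 342 with Tributyrin, a range of far smaller width than that of *Setd5*. By the deviations from the group means, which leave out the difference between the groups, the closest were *Mre11a* (0.9995), *Map7* (0.999), *Mras* (0.996), *AI464131* (0.995) and *Ccnd2* (0.994). By this measure 116 genes had a coefficient over 0.9, and with the group means taken out fewer values are free to vary.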

How the data were processed

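Stranded mRNA-seq of heart ventricle was used (WD + Tributyrin and WD + Vehicle, n = 3 each). The authors deposited raw read counts per Ensembl gene without normalization. The submitters' processing notes name cutadapt 1.13, STAR, HTSeq 0.6.1p1, DESeq2 1.14.1 and mm10. Which annotation release was counted, and whether by strand, is not given in the sources used here. Of 54232 identifiers, 54165 were matched to GENCODE M21 for names, positions and exonic lengths, and promoter windows came from RefSeq (GRCm38.p6).

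Differential expression was computed with edgeR 4.0.16 (R 4.3.3): TMM scaling, filterByExpr (minimum count 10, minimum total 15), the quasi-likelihood test without covariates, and Benjamini-Hochberg adjustment over all genes tested at an FDR of 10%. The SE of a fold change is its size divided by the square root of F. For normalized counts, each count was divided by its library's DESeq2 1.42.0 size factor. Log2 CPM used a prior count of 2, and TPM was computed from counts and exonic length. SE of a difference of means were taken from the SDs of both groups. Alternatives used other scalings and filters, DESeq2 with and without a normal prior, limma-voom (limma 3.58.1), the replicate number as a block, and each mouse left out in turn. The alternatives on length and atrial transcripts, and those of *Gt(ROSA)26Sor*, were added after seeing the data. The edgeR step was tested on simulated data.

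The libraries held 20369746 to 32734485 counts. Nothing in the sources used here says that libraries of a group are technical repeats. The p-values set the difference between groups against a spread estimated from these samples. Counting errors cover counting only. The members and lists were chosen with earlier results of these data known. The genes named were all members, the 2 tested genes at each end of each list, the neighbours of *Setd5*, and the 5 genes most like *Setd5* by each measure. *Trp53*, *Acta1* and others fall under that rule. *Thumpd3* and the genes that start within 2000 bases of other members on the other strand were named after their values were seen. *Setd9* was listed among the SET domain genes and was not matched by that symbol. Tools for tables and figures were Python 3.11.15, numpy 2.4.6, pandas 2.3.3, scipy 1.17.1 and matplotlib 3.10.9.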

Additional observations from a re-analysis of the deposited data

How the results depend on the processing

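The log2 fold change of *Setd5*, whose direction its selection fixed, was -0.38 in DESeq2 with a prior and ranged from -0.83 to -0.45 with 1 mouse left out. Against vehicle library 3 alone, its highest library, it was -0.98. The count of members past an FDR of 10% went from 0 to 1, *Setd5*, without the filter on low counts and in DESeq2 with or without a prior, and the cause was not tested. Over all genes, 167 were called without the filter, 11 by DESeq2, 9 by DESeq2 with a prior, and 0 to 3 with 1 mouse left out (edgeR, 0 with all mice). The correlations of same-numbered deviations were 0.21, 0.04 and 0.01. With 3 libraries in each group, they cannot decide whether the numbers pair the mice. With the replicate number as a block, 2 genes were called, neither of them a member, and *Setd5* was at -0.64. The median of the other 8 members ranged from -0.10 with library size alone to 0.04 without Tributyrin replicate 3, and *Setd5* minus their mean from -0.82 to -0.56 with 1 mouse left out. The signs of *Setd1b*, *Setd2*, *Setd3* and *Setdb1* changed in 2, 2, 1 and 1 of 15 alternatives each, and those of *Setd1a*, *Setd4*, *Setd6* and *Setd7* in none. *Setd4* fell out of the fit at a mean CPM of at least 5 and was at 0.12 in DESeq2 with a prior. *Gt(ROSA)26Sor* stayed positive in 14 alternatives, from 0.25 in DESeq2 with a prior to 1.61 without vehicle replicate 1, and passed an FDR of 10% without the filter (adjusted p = 0.00221). With 18 to 49 counts, a difference in *Setd4* smaller than its counting error could not be told from none.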
